A study of Mus musculus with 2 samples.

Results

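The 10 tubulin isotype genes described here, Tuba1a, Tuba1b, Tuba1c, Tuba4a, Tubb2a, Tubb2b, Tubb3, Tubb4b, Tubb5 and Tubb6, were found by symbol and are 10 of the 30970 gene rows of single-cell RNA-seq data from mouse yolk sac. The study set out to compare the transcriptomes of yolk sac cells that bear a cilium with those of the visceral endoderm lineage, which bears none. Yolk sacs were taken at stage E8.75, and their cells were tagged, pooled and loaded together. All animals had the genotype Ttr-Cre/+; R26lsl-rtTA-EGFP/+, so no group lacks the Cre or the reporter and none was treated. In these animals Cre is driven by transthyretin (Ttr) regulatory sequence, which is active in visceral endoderm, and recombination turns on rtTA and EGFP from the Rosa26 locus. The 3 tagged samples, labelled Ctrl1, Ctrl2 and Ctrl3, are called tagged samples 1, 2 and 3 and serve as replicates. The groups compared are therefore cell classes within the same yolk sacs.

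Microtubules are polymers of a heterodimer that joins an alpha to a beta tubulin, and each partner is encoded by a small family of isotype genes. The proteins of a family are nearly alike along the folded body and differ mainly in an acidic C-terminal tail, which lies on the microtubule surface and is where many tubulin modifications are placed. The axoneme of a cilium, the mitotic spindle and the interphase array all draw on these proteins, and tissues are known to differ in the isotypes they use.

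Cells with at least 500 detected genes and at most 10% mitochondrial counts were put in 4 classes by the share of their unique molecular identifiers (UMIs, counted transcripts) that came from marker genes. The endoderm class had at least 0.3% from Ttr, Apob and Apom, and the erythroid class at least 3% from 7 globin genes. The endothelium class had at least 0.04% from Cdh5, Ctla2a and Plvap, and the mesoderm class at least 0.03% from Hand1, Vcan and Foxf1. No tubulin gene was used, so tubulin levels are free to differ or not. Of 1817 cells, 1740 passed, 50 fell in several classes and were dropped, 188 fell in none, and 1502 were classed. The endoderm class held 559 cells, mesoderm 199, endothelium 115 and erythroid 629.

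Tagged samples held 460, 651 and 706 cells with median depths of 46850, 47786 and 45539 UMIs, and no barcode was in more than 1 of them. Of markers that the classes were not chosen by, 9 of 10 endoderm, 8 of 8 erythroid, 8 of 8 endothelial and 7 of 8 mesoderm genes were highest in their own class. The exception among the endoderm genes was highest in endothelium. The exception in mesoderm was Pdgfra, which was highest in endoderm. Cells with at least 4 Xist UMIs and hardly any Y-linked ones numbered 190, 263 and 221 in the 3 tagged samples, and cells of the opposite kind 151, 180 and 350, so each tagged sample held both kinds. Whether a tagged sample is 1 embryo or a pool of several could not be settled. P-values measure the spread between these 3 samples only, which may differ from that between embryos. Automatic doublet calling marked 58 of the classed cells, which were kept.

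The coding sequences of the members ranged from nearly identical to clearly different, which matters for the tail each class would encode and for whether reads can tell the genes apart. The last 60 coding bases of each principal transcript, stop codon included, are given for 4 of the beta genes, with gene models from GENCODE M21 (GRCm38). Capitals mark bases unlike those of Tubb5 in an alignment of the whole coding sequences.
Tubb5: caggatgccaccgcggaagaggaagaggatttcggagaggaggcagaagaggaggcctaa
Tubb4b: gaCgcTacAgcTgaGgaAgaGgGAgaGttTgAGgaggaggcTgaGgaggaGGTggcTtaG
Tubb2b: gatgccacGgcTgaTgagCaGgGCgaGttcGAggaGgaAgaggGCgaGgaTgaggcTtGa
Tubb3: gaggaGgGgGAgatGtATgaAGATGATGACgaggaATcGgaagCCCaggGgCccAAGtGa

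Among the alpha genes, 98.3% of the coding bases were identical between Tuba1a and Tuba1b, 97.9% between Tuba1b and Tuba1c and 85.3% between Tuba1b and Tuba4a. Tuba4a is known as the alpha isotype whose gene does not encode the terminal tyrosine carried by the others. Among the beta genes Tubb4b differed from Tubb5 at 20 of the last 60 bases, Tubb2b at 18 and Tubb3 at 29, and Tubb2a and Tubb2b shared 96.5% of their coding bases.

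Tuba1a (chr15:98949837-98953703), Tuba1b (chr15:98931425-98934565) and Tuba1c (chr15:99029891-99038110) are neighbours, with Tuba1a and Tuba1b on the minus strand and Tuba1c on the plus strand, each a protein-coding gene of 4 exons. Reads were 90 bases long, and of the 90-base windows in the last 500 transcript bases 52.1% for Tuba1a, 60.1% for Tuba1b and 65% for Tuba1c also occurred in a transcript of another gene. Every shared window held coding bases, and no window that lay wholly after the stop codon was shared. Tubb2a shared 25.8% of its windows and Tubb4b 12.7%, while Tuba4a, Tubb2b, Tubb3, Tubb5 and Tubb6 shared none. The sources used here do not say how shared reads were assigned, so shares between Tuba1a, Tuba1b and Tuba1c carry an uncertainty that a comparison of 1 gene between classes carries less. The summed alpha level, the ratio of beta to alpha and the Tuba4a share can depend on that assignment too.

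Together the members held nearly all tubulin UMIs: 99.9% of the alpha and beta tubulin UMIs in mesoderm and more in the other classes, the rest falling on 6 further alpha and beta genes. Levels are given in CPM, the UMIs of a gene when those of a class in 1 tagged sample are scaled to a total of 1000000. In 3′ counting a gene's UMIs do not depend on its transcript length. Summed alpha tubulin was highest in mesoderm, with a level of 1305 ± 73.3 (SD, n = 3), followed by endothelium with 1071 ± 24.8, endoderm with 843.4 ± 23.3 and erythroid cells with 768.5 ± 23.8. Summed beta tubulin was highest in endothelium, with 2144 ± 95.7, followed by mesoderm with 1844 ± 26.9, endoderm with 1579.8 ± 66.5 and erythroid cells with 1503 ± 24.8. The tagged samples of neighbouring classes in the alpha order did not overlap, and in the beta order only endoderm and erythroid cells did. Leaving the 7 globins out of the total raised the erythroid values to 833.4 for alpha and 1630 for beta, both within the range of the endoderm samples. The ratio of beta to alpha UMIs was 1.42 ± 0.0598 in mesoderm and between 1.87 and 2.0 in the other classes.

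**Figure D1:**
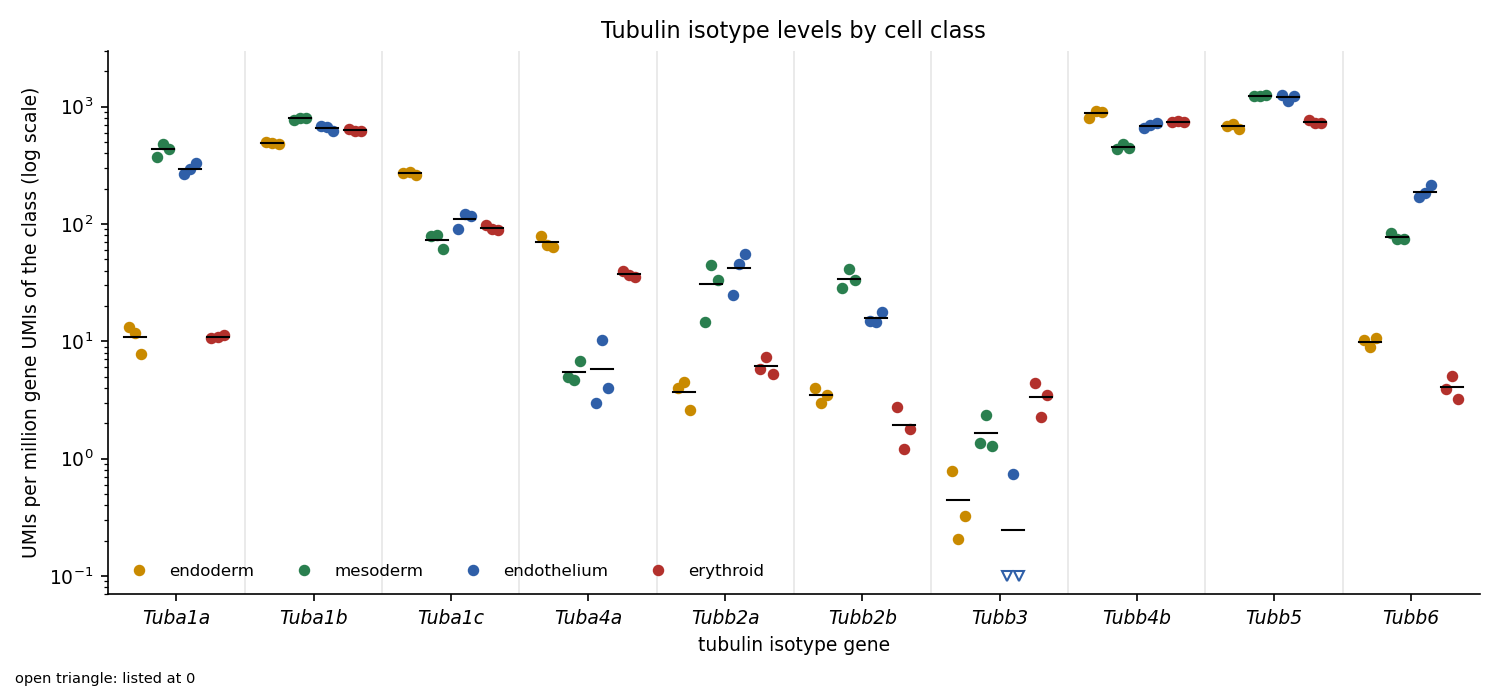
Level of each tubulin gene in CPM, labelled as scaled gene UMIs of the class (vertical axis, log scale), in the 4 cell classes, with 1 point per tagged sample and a black bar for the mean of 3, open triangles standing for 0 UMIs. Tuba1a, Tubb2a, Tubb2b and Tubb6 sit higher in mesoderm and endothelium, Tuba4a and Tuba1c sit highest in endoderm, and Tuba1b, Tubb4b and Tubb5 are high in all 4 classes.

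Against endoderm, mesoderm and endothelium had more Tuba1a, Tubb2a, Tubb2b, Tubb6, Tubb5 and Tuba1b and less Tuba4a, Tuba1c and Tubb4b. In mesoderm 6 of the 9 members tested were called higher and 3 lower, where calling means an adjusted p under 0.05 in edgeR's quasi-likelihood test over all genes. Of all 11011 genes tested there, 63.8% were called (30.6% higher and 33.2% lower), so being called sets no gene apart and the sizes and directions carry the description. In endothelium the counts were again 6 higher and 3 lower of 9, where 60.5% of 10694 genes were called (28.6% higher and 31.9% lower). In erythroid cells 4 of 10 members were called higher and 4 lower, where 77.9% of 11055 genes were called (36.1% higher and 41.8% lower). The 3 comparisons share the endoderm sums, so they are not independent of one another. The median log2 difference of the tested members was 0.63 in mesoderm, 0.70 in endothelium and 0.09 in erythroid cells, beside medians of -0.02, -0.05 and -0.05 over all genes tested. Tubb3 did not reach the count filter in the mesoderm and endothelium fits. In the erythroid fit it passed through its erythroid sums, so its call there carries that selection. With scaling by library size the median of all genes moved to 0.22 in mesoderm, 0.08 in endothelium and -0.27 in erythroid cells, and mesoderm calls over all genes split into 4583 higher and 2757 lower instead of 3369 and 3656.

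**Figure D2:**
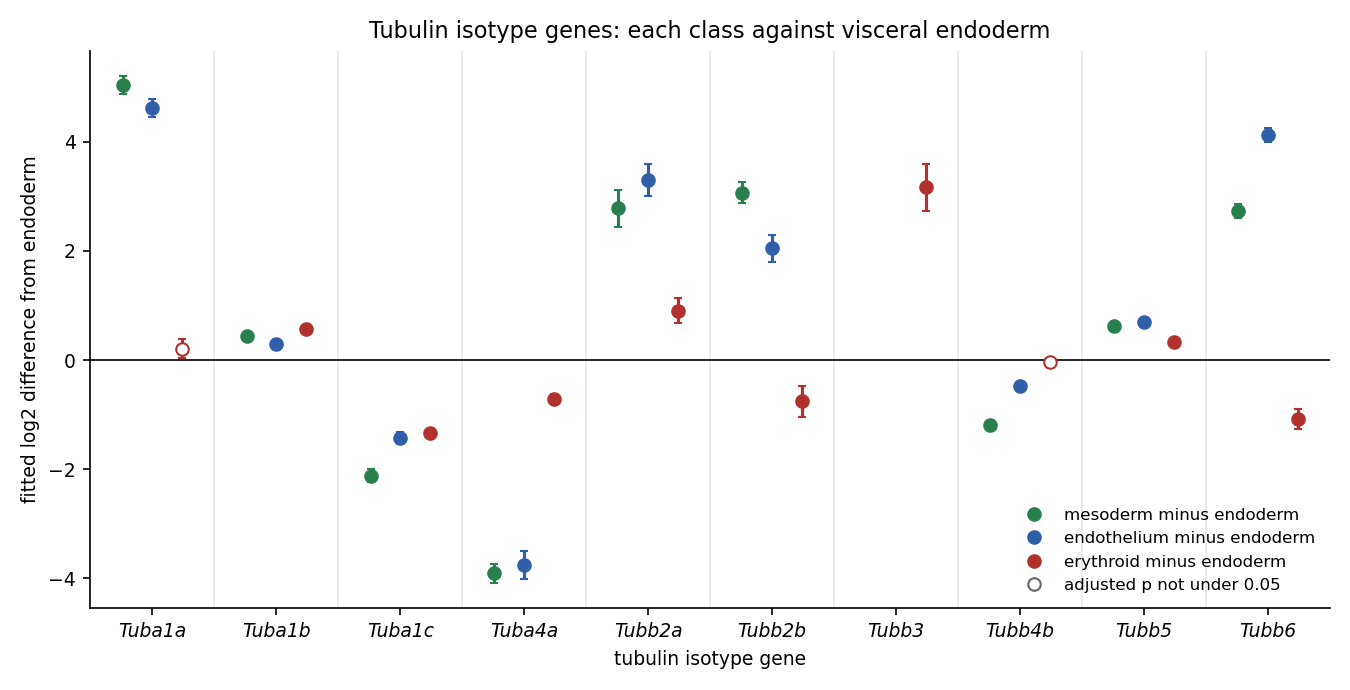
Fitted log2 difference of each tubulin gene between a class and endoderm (vertical axis, with its standard error), for mesoderm, endothelium and erythroid cells, each from 3 sums against 3. Filled points passed the adjusted threshold and open points did not. Tuba1a lies at 5.05 and 4.62 in mesoderm and endothelium and at 0.21 in erythroid cells, and Tuba4a lies at -3.91, -3.76 and -0.71.

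Tuba1a, the alpha isotype best known from developing neurons, showed the widest range among the alpha genes. Its levels in mesoderm were 372, 483 and 440.1 CPM in tagged samples 1, 2 and 3, and in endothelium 267, 294 and 331. In endoderm they were 13.3, 11.8 and 7.84, and in erythroid cells 10.7, 10.8 and 11.3. The 2 higher classes did not overlap each other or the 2 lower ones, and the lower ones overlapped. Against endoderm the fitted level was 33.0-fold higher in mesoderm (log2 difference 5.05 ± 0.16 SE, adjusted p = 7.71e-10) and 24.6-fold higher in endothelium (4.62 ± 0.16, adjusted p = 8.59e-11). With cells marked as doublets removed these were 49.6-fold and 37.7-fold, and with gate thresholds doubled the endothelial one was 37.3-fold. The erythroid difference of 0.21 ± 0.17 was not called (adjusted p = 0.286). It was 0.61 with an adjusted p of 0.00496 when cells marked as doublets were removed, -0.0073 with library size scaling and -0.0022 without tagged sample 3.

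As a share of alpha tubulin UMIs, Tuba1a made up 30.4%, 35.2% and 33.4% in mesoderm and 25.5%, 26.9% and 30.8% in endothelium. In tagged sample 1 the exact 95% interval was 28.6% to 32.1% for mesoderm and 23.5% to 27.6% for endothelium, and such intervals cover counting error only. Endoderm held 1.54%, 1.39% and 0.958% and erythroid cells 1.34%, 1.43% and 1.5%. In droplets, RNA freed from other cells gives some UMIs in cells that do not make a transcript. The endoderm and erythroid levels of Tuba1a were 2.54% and 2.53% of its mesoderm level. The collagen gene Col1a2, a mesoderm marker here, stood at 2.19% and 0.973% of its mesoderm level in these classes and Col3a1 at 1.40% and 1.36%. Tuba1a lay above these 2 genes in both classes, but unlike them it was also high in endothelium. There it stood at 68.8% of its mesoderm level, against 7.70% for Col1a2 and 1.47% for Col3a1. The part of free RNA in the endoderm and erythroid counts of Tuba1a was not tested. Of the 7 neural markers, Sox1, Elavl3 and Neurod1 had no UMI in mesoderm and Sox1, Pax6, Sox2 and Neurod1 none in endothelium. All 7 together summed to between 10.0 and 27.6 CPM in mesoderm and between 69.6 and 108 in endothelium. Only 2 of the 7 had more than 3 UMIs in endothelium and 3 of the 7 in mesoderm. Of the mean mesoderm sum of 20.7, Stmn2 alone gave 11.7, so these sums rest on few genes of the list. In endoderm the sum was between 1.32 and 1.96 and in erythroid cells between 2.08 and 4.01. Which cells gave these neural marker UMIs was not tested.

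Tuba1b, a broadly expressed alpha isotype, led the alpha family in every class. Its levels were 499, 492 and 485 in endoderm, 769, 804 and 808 in mesoderm, 684, 668 and 621 in endothelium and 647, 621 and 616 in erythroid cells. All 9 values outside endoderm lay above the 3 endoderm values, and endothelium and erythroid cells overlapped. The fitted differences from endoderm were small, at 0.45 ± 0.06 in mesoderm, 0.29 ± 0.07 in endothelium and 0.56 ± 0.05 in erythroid cells (adjusted p between 4.76e-07 and 0.00311). Its share was 58.4% ± 0.817 (SD, n = 3) of alpha UMIs in endoderm, 60.9% ± 2.10 in mesoderm, 61.5% ± 3.86 in endothelium and 81.7% ± 0.381 in erythroid cells. Every erythroid share lay above all others.

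Tuba1c, whose coding sequence is 97.9% identical to that of Tuba1b, was highest in endoderm, where Tuba1b was lowest, and lowest in mesoderm, where Tuba1b was highest. It stood at 274, 275 and 261 in endoderm but at 79.6, 80.1 and 60.6 in mesoderm, 90.8, 122 and 116 in endothelium and 98.4, 90.3 and 88.4 in erythroid cells. Every endoderm value was more than 2 times any value of the other classes, and among the others only endothelium and erythroid cells overlapped. The fitted level fell by 2.12 on the log2 scale in mesoderm, by 1.44 in endothelium and by 1.34 in erythroid cells (standard errors 0.11, 0.11 and 0.06; adjusted p between 2.81e-09 and 1.17e-07). Its share of alpha UMIs was 32.0% ± 0.493 in endoderm and 5.65% ± 0.956 in mesoderm, with 10.2% in endothelium and 12% in erythroid cells between them.

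Tuba4a (chr1:75214228-75219865, minus strand), the isotype without an encoded terminal tyrosine, was an endoderm and erythroid gene. It stood at 79.7, 66.1 and 64.0 in endoderm and 39.6, 36.4 and 35.3 in erythroid cells, against 5.0, 4.67 and 6.78 in mesoderm and 2.97, 10.3 and 4.0 in endothelium. Mesoderm and endothelium overlapped and rested on 39 and 24 UMIs, while the other classes did not overlap these or each other. The fitted level was 15.0-fold lower in mesoderm (log2 difference -3.91 ± 0.17, adjusted p = 6.51e-09), 13.5-fold lower in endothelium (-3.76 ± 0.26, adjusted p = 5.72e-08) and 1.63-fold lower in erythroid cells (-0.71 ± 0.09, adjusted p = 1.51e-05). With gate thresholds doubled the Tuba4a difference was 29.3-fold in mesoderm and 24.5-fold in endothelium, and without tagged sample 2 it was 22.0-fold in endothelium, each still called. The erythroid level was 53.1% of the endoderm level, whereas the endoderm secretory genes Afp, Apoa1, Apoa4 and Rbp4 stood at 1.46% to 1.99% there. In mesoderm Tuba4a kept 7.84% of its endoderm level and in endothelium 8.23%, against 1.76% to 2.70% and 1.83% to 2.46% for the same 4 genes. All of the last 500 bases of Tuba4a overlap exons of Stk16 on the other strand. Stk16 itself stood at 51.4 in endoderm, 59.1 in mesoderm, 53.8 in endothelium and 59.1 in erythroid cells and did not follow the order of Tuba4a. The sources used here do not say whether the counting used strand.

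**Figure D3:**
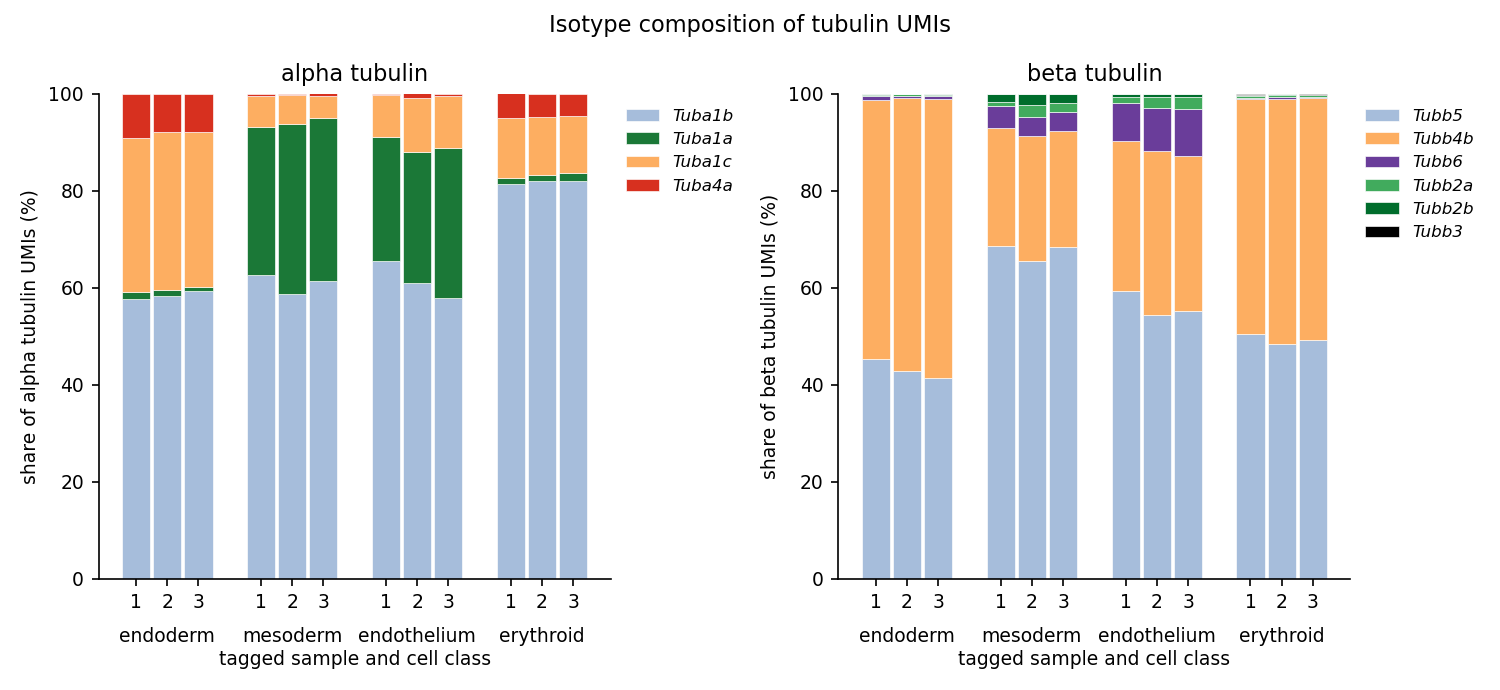
Isotype shares of alpha tubulin UMIs (left) and beta tubulin UMIs (right), in percent, with 1 stacked bar per tagged sample in each of the 4 classes. Tuba1a fills 30.4% to 35.2% of alpha in mesoderm, Tuba1c 31.6% to 32.6% in endoderm and Tuba1b 81.3% to 82.0% in erythroid cells, while Tubb4b and Tubb5 exchange the larger beta share between endoderm and mesoderm.

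Tubb5 and Tubb4b together held most beta tubulin UMIs in every class, and the balance between them differed. Tubb5 (chr17:35833921-35838306, minus strand) is a beta isotype found in most dividing cells. Tubb4b (chr2:25222160-25224702, minus strand) is a broadly expressed beta isotype that is also abundant in the axonemes of motile cilia. Tubb5 stood at 1246, 1224 and 1265 in mesoderm and 1261, 1119 and 1238 in endothelium, against 687, 706 and 652 in endoderm and 769.9, 725 and 727 in erythroid cells. Tubb4b stood at 808, 924 and 910 in endoderm, 742, 756 and 739 in erythroid cells, 661, 693 and 721 in endothelium and 439, 481 and 442 in mesoderm. With globins kept in the total, no neighbouring classes overlapped for Tubb4b, and for Tubb5 only mesoderm and endothelium did. With globins left out, Tubb4b stood at 738, 787 and 793 in erythroid cells at or below the median globin share of their tagged sample. Above that median it stood at 844, 872 and 817. The lower-globin values lay below every endoderm value and the higher-globin values within the endoderm range.

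Tubb5 was higher than in endoderm by 0.63 ± 0.07 on the log2 scale in mesoderm, 0.70 ± 0.08 in endothelium and 0.33 ± 0.05 in erythroid cells (adjusted p = 7.45e-06, 3.52e-06 and 0.000106). The erythroid difference was 0.12 and no longer called with library size scaling (adjusted p = 0.0535). Tubb4b was lower by 1.20 ± 0.09 in mesoderm (fold 2.29, adjusted p = 3.11e-07) and by 0.48 ± 0.08 in endothelium (fold 1.39, adjusted p = 0.000241). In erythroid cells its difference was -0.03 ± 0.07 and was not called (adjusted p = 0.699), but with library size scaling it was -0.24 and called (adjusted p = 0.00205). Of beta UMIs, Tubb4b made up 53.4%, 56.1% and 57.6% in endoderm and 24.2%, 25.7% and 23.9% in mesoderm. Tubb5 made up 45.4%, 42.9% and 41.3% in endoderm and 68.6%, 65.5% and 68.4% in mesoderm. In erythroid cells the shares were 49.6% for Tubb4b and 49.3% for Tubb5, which differed by less than the spread between tagged samples.

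Of the last 500 bases of Tubb4b, 121 overlap exons of Fam166a on the other strand, and Fam166a had 3 UMIs in endoderm, 2 in erythroid cells and none in mesoderm or endothelium.

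Tubb6, a beta isotype whose coding sequence is 80.4% identical to that of Tubb5, was highest in endothelium. It stood at 169, 184 and 214 in endothelium, 84.6, 73.9 and 74.2 in mesoderm, 10.2, 8.87 and 10.7 in endoderm and 3.94, 5.04 and 3.22 in erythroid cells. None of the 4 classes overlapped another. Against endoderm it was 17.5-fold higher in endothelium (log2 difference 4.13 ± 0.13, adjusted p = 4.83e-11), 6.65-fold higher in mesoderm (2.73 ± 0.13, adjusted p = 1.10e-08) and 2.11-fold lower in erythroid cells (-1.08 ± 0.19, adjusted p = 0.000257). Its share of beta UMIs reached 8.80% ± 0.823 in endothelium and 4.21% ± 0.392 in mesoderm, with 0.629% in endoderm and 0.27% in erythroid cells. The endoderm level was 5.25% of the endothelial level, beside 1.01% for Pecam1, 0.466% for Kdr, 1.24% for Esam and 10.2% for Egfl7, all endothelial markers here. Megakaryocyte markers summed to between 42.1 and 61.8 CPM in endothelium, with Gp9, Gp1bb and Ppbp at 0, and their part in the Tubb6 level was not tested.

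Tubb2a (chr13:34074274-34078007) and Tubb2b (chr13:34126748-34130466), neighbours on the minus strand best known from the nervous system, were minor genes. Their order of classes was alike only in part. Tubb2a stood at 14.6, 44.3 and 33.1 in mesoderm and 24.9, 45.6 and 55.2 in endothelium, against 4.03, 4.51 and 2.61 in endoderm and 5.79, 7.28 and 5.30 in erythroid cells. Tubb2b stood at 28.2, 41.2 and 33.1 in mesoderm and 14.8, 14.7 and 17.6 in endothelium, against 4.03, 2.98 and 3.49 in endoderm and 2.78, 1.21 and 1.79 in erythroid cells. Mesoderm and endothelium overlapped for Tubb2a and not for Tubb2b, which was higher in mesoderm, and both genes lay lower in endoderm and erythroid cells.

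Against endoderm Tubb2a was higher by 2.78 ± 0.34 in mesoderm, 3.30 ± 0.29 in endothelium and 0.90 ± 0.23 in erythroid cells (adjusted p = 2.39e-05, 4.89e-07 and 0.00359). Tubb2b was higher by 3.07 ± 0.19 in mesoderm and 2.05 ± 0.24 in endothelium (adjusted p = 1.07e-07 and 8.94e-06). In erythroid cells Tubb2b was lower, with a log2 difference of -0.75 ± 0.28 and an adjusted p of 0.0285, on 55 UMIs. That call was lost without tagged sample 2 (-0.63, adjusted p = 0.119) and without tagged sample 3 (-0.76, adjusted p = 0.135), and with DESeq2 (adjusted p = 0.114) and thinned sums (adjusted p = 0.104).

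Tubb3 (chr8:123411424-123422015, plus strand), the beta isotype used as a marker of neurons, was the rarest member. Erythroid cells held 101 UMIs (19, 24 and 58), endoderm 7, 3 and 3, mesoderm 3, 6 and 3, and endothelium 0, 1 and 0. The levels were 4.40, 2.24 and 3.46 CPM in erythroid cells and 1.36, 2.33 and 1.27 in mesoderm, and these classes overlapped. Endoderm values were 0.784, 0.208 and 0.327, below every value of both. Tubb3 passed the count filter of the erythroid fit through its erythroid sums, as the same endoderm sums missed it in the mesoderm and endothelium fits. The fold and p-value of that fit carry this selection and are given as description only. Against endoderm the erythroid level was 8.97-fold higher (log2 difference 3.16 ± 0.43, adjusted p = 2.92e-05), higher in all 3 tagged samples. It was 15.1-fold higher with cells marked as doublets removed, and Tubb3 did not reach the count filter with thinned sums or in the fit of all 4 classes. Without the count filter the mesoderm difference was 1.66 with an adjusted p of 0.0483. With every cell thinned to 20000 UMIs and shallower cells left out, Tubb3 was detected in 33 of 616 erythroid cells (5.36%, exact 95% interval 3.72% to 7.44%), 7 of 174 mesoderm cells (4.02%) and 4 of 511 endoderm cells (0.783%, interval 0.214% to 1.99%). A Tubb3 UMI was found in 0 of 84 endothelial cells, for which the exact 95% interval of the share of cells with a UMI reaches 4.30%, and the limit of 3 cells that a count of 0 allows is 3.57%. Unthinned shares were 14.1%, 4.52%, 1.97% and 0.870% at median depths of 47771, 34959, 56338 and 35699. Of 7 neural markers, Sox1, Pax6 and Neurod1 had no UMI in erythroid cells, and the summed level of all 7 there was between 2.08 and 4.01 CPM.

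Each isotype's share was also set against endoderm with an exact two-sided permutation test, 3 values against 3. In 25 of the 30 tests the tagged samples of the 2 classes did not overlap, but this design cannot give a p below 0.1 (0.12 after Benjamini-Hochberg adjustment over the 30). The share of all genes whose tagged samples do not overlap was not computed, so this count sets no isotype apart. By edgeR's test of levels, which is another measure, between 60.5% and 77.9% of all genes were called in the 3 comparisons. The overlapping cases were Tuba1a and Tubb2b in erythroid cells, Tuba1b in mesoderm and in endothelium, and Tubb3 in endothelium.

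Isotype shares were also taken in single cells with at least 20 UMIs of the family. In 179 mesoderm cells the median Tuba1a share was 32.7%, with the 10th to 90th percentile from 13.9% to 50%, and 6 cells had none. In 85 endothelial cells the median was 27.3%, from 7.16% to 41.7%, and 1 cell had none. In contrast 344 of 494 endoderm and 379 of 584 erythroid cells had no Tuba1a UMI. Tuba1a was thus detected in most mesoderm and endothelial cells of this depth, and it led the alpha family outright in 22 mesoderm and 5 endothelial cells. Tuba1b led in 584 of 584 erythroid cells, 450 of 494 endoderm, 155 of 179 mesoderm and 78 of 85 endothelial cells. Among beta genes, Tubb5 led in 183 of 183 mesoderm and 95 of 103 endothelial cells and Tubb4b in 394 of 525 endoderm cells. Erythroid cells were divided, with Tubb4b ahead in 308 and Tubb5 in 293 of 621. Tubb6 had a median share of 8.06% in endothelial cells and was at 0 in 4 of 103.

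**Figure D4:**
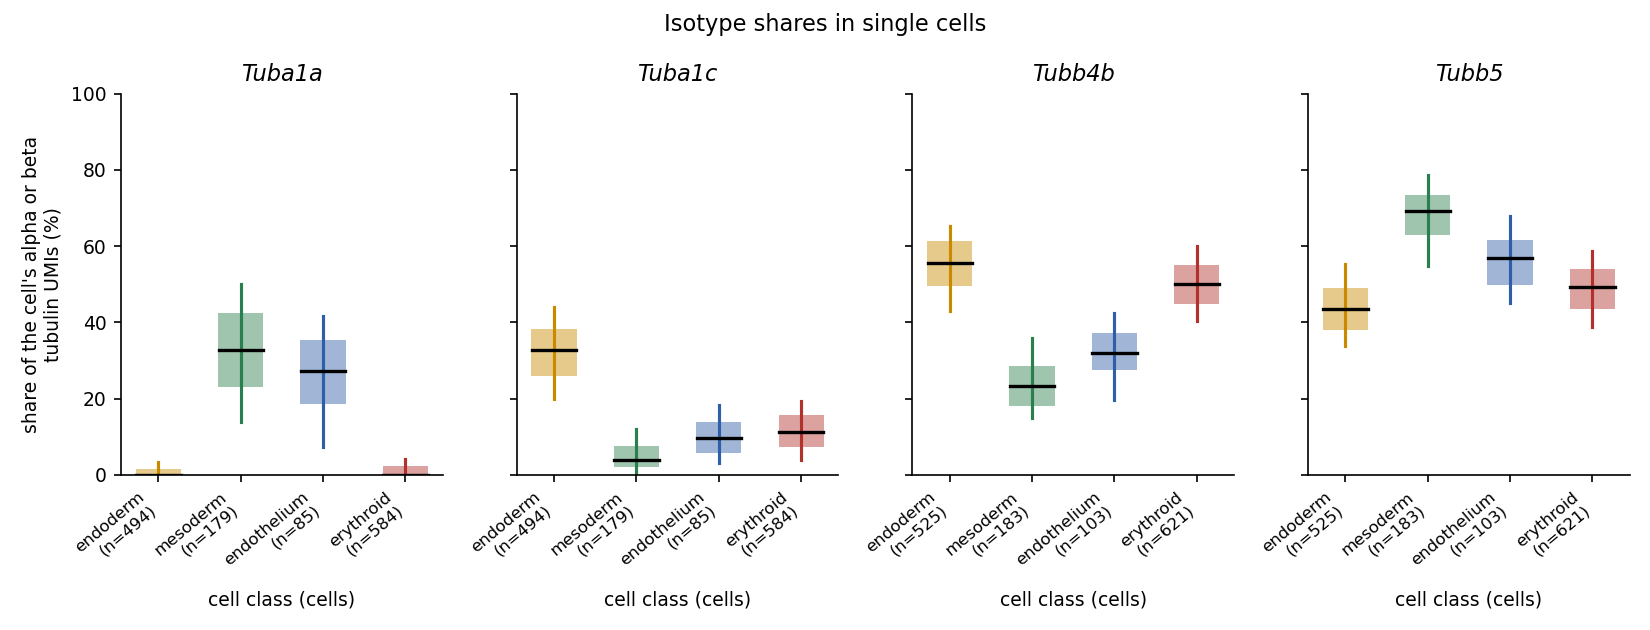
Share of a cell's alpha UMIs (Tuba1a, Tuba1c) or beta UMIs (Tubb4b, Tubb5) in percent, for cells with at least 20 UMIs of the family. Boxes span the 25th to 75th percentile, thin lines the 10th to 90th, and black bars mark the median, which for Tuba1a is 32.7% in mesoderm, 27.3% in endothelium and 0 in the other classes.

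Within mesoderm, 61 cells had at least 5 UMIs of the contractile genes Myl7, Actc1, Tnnt2 and Ttn. Their Tuba1a shares were 34.0%, 33.2% and 37.7% in the 3 tagged samples, against 28.4%, 36.2% and 31.2% in the other mesoderm cells, and the ranges overlapped. Their Tubb4b shares of 19.6%, 26.0% and 25.3% overlapped with 26.7%, 25.6% and 23.2%.

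Erythroid cells of each tagged sample were also split at their median globin share into a lower-globin group of 315 and a higher-globin group of 314 cells, ranges of 1 measure and not types, and globins were left out of the totals. Tuba1c, Tubb5 and Tubb4b were called higher in the higher-globin group and Tuba1a lower, 3 and 1 of 10 members, where 2.87% of 8925 genes were called (2.05% higher and 0.818% lower). Over all genes this was 183 higher and 73 lower, which library size scaling turned into 41 and 111. Tuba1c rose from 91.9, 82.5 and 85.2 to 118, 115 and 108 (log2 difference 0.47 ± 0.07, adjusted p = 0.00497). Tuba1a fell from 14.7, 16.2 and 16.0 to 8.20, 7.66 and 8.36 (-0.89 ± 0.16, adjusted p = 0.00989). Tubb5 differed by 0.24 ± 0.04 and Tubb4b by 0.21 ± 0.05 (adjusted p = 0.0118 and 0.032). Tubb3 stood at 7.62, 3.75 and 3.94 CPM in the lower-globin group and 1.93, 1.21 and 3.58 in the higher-globin group and was not called (adjusted p = 0.379). No member was called without tagged sample 2 or without tagged sample 3, and with the tagged sample as a replicate block 4 members were called higher and 2 lower, of 645 and 357 genes. The block added Tuba1b (0.14, adjusted p = 0.000752) and Tubb6 (-0.89, adjusted p = 0.0296). Beside this, 3 of 49 G2 and M phase genes, Nusap1, Ccnb2 and Smc4, were called higher in the higher-globin group and none lower.

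Of the other tubulin genes, only the gamma, delta and epsilon tubulins that serve centrosomes and centrioles reached the test. Tubg1, gamma tubulin of the nucleating ring complex, was called higher than endoderm in mesoderm, endothelium and erythroid cells, by 0.50 ± 0.15, 0.78 ± 0.15 and 0.89 ± 0.11 (adjusted p = 0.0135, 0.000664 and 1.26e-05). Its mean levels were 17.6 in endoderm, 29.5 in mesoderm, 32.8 in endothelium and 28.8 in erythroid cells. Tube1 was higher in mesoderm by 0.68 ± 0.24 (adjusted p = 0.0262) and Tubd1 in erythroid cells by 0.99 ± 0.21 (adjusted p = 0.00101). Tubb1, the platelet beta tubulin, had 23 UMIs in erythroid cells and at most 4 in any other class, but the class totals differ. Its mean levels were 0.66 CPM in erythroid cells, 0.27 in mesoderm, 0.27 in endothelium and 0.13 in endoderm. In cells that fell in no class it stood at 1.08, on 8 UMIs.

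Lists of genes that act on tubulin are given by their counts, to be read beside the shares of all genes called, 63.8% in mesoderm, 60.5% in endothelium and 77.9% in erythroid cells, and nothing is called particular to a list from them. Of the 24 genes for tubulin folding and autoregulation, 3 were higher and 7 lower than endoderm in mesoderm, 3 and 7 in endothelium, and 15 and 5 in erythroid cells, with medians of 0.00, -0.13 and 0.48. The shares of the list called were 41.7%, 41.7% and 83.3%. In erythroid cells the chaperonin subunits Cct4, Tcp1 and Cct8, part of the ring that folds new tubulin, were higher by 0.98, 0.69 and 0.69 (adjusted p at most 1.89e-07). In mesoderm Cct3 was higher by 0.35 while the prefoldin subunits Pfdn1 and Pfdn4, which hand tubulin to the ring, had differences of -0.86 and -0.39. In endothelium Cct4 was higher by 0.42 and Pfdn1 and Arl2, a regulator of tubulin assembly, had differences of -0.58 and -1.19. All named folding genes passed the adjusted threshold.

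Of the 26 tubulin-modifying enzymes, 14 were tested in mesoderm (5 higher, 4 lower), 17 in endothelium (5 and 4) and 15 in erythroid cells (4 and 4). These are 64.3%, 52.9% and 53.3% called, beside 63.8%, 60.5% and 77.9% of all genes. Agtpbp1, which trims glutamate chains and terminal residues from tubulin, was higher by 2.42 in both mesoderm and endothelium, at 12.3 and 11.4 CPM against 1.97 in endoderm. Svbp, the partner of the vasohibin tyrosine-removing enzymes, was higher by 0.84 in mesoderm and 1.14 in erythroid cells. Vash1, the enzyme itself, was called higher in endothelium at a mean of 5.88 against 0.0825 in endoderm. The deacetylase Sirt2 was lower in all 3 classes, by 1.21, 1.09 and 1.18, and the deacetylase Hdac6 was lower in erythroid cells by 2.21.

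Of the microtubule stabilising and plus end genes, 15 were higher and 3 lower of 20 tested in mesoderm, 12 and 3 of 17 in endothelium, and 8 and 9 of 19 in erythroid cells, with medians of 0.59, 0.56 and -0.26. These are 90% called in mesoderm, 88.2% in endothelium and 89.5% in erythroid cells, beside 63.8%, 60.5% and 77.9% of all genes. Map1b, a microtubule-associated protein of growing axons, stood at 93.1 in mesoderm and 106 in endothelium against 5.40 in endoderm (log2 differences 3.85 and 4.14). Map7d1 stood at 61.0 and 83.8 against 8.86 (2.54 and 3.13), and Eml4 was higher in endothelium by 1.54. Camsap3, which anchors microtubule minus ends in epithelial cells, had differences of -2.73 in mesoderm and -4.72 in erythroid cells. Map4 and Map7 were lower in erythroid cells by 2.11 and 2.34.

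Among destabilising and severing genes, 5 were higher and 1 lower of 11 tested in mesoderm, 5 and 1 of 10 in endothelium, and 8 and 1 of 10 in erythroid cells. These are 54.5%, 60% and 90% called, beside 63.8%, 60.5% and 77.9% of all genes. Kif2a, a kinesin that takes microtubule ends apart, was higher in all 3 classes, by 0.86, 1.26 and 1.35. Stmn1, a tubulin-binding protein of dividing cells, was higher in endothelium by 1.36 and in erythroid cells by 1.09, and Kif18a in erythroid cells by 1.19. The severing protein Fign was higher by 3.38 in mesoderm and 1.36 in endothelium. Stmn2 was called higher in mesoderm, at a mean of 11.7 ± 8.45 CPM against no UMI in endoderm. All genes named in these lists passed the adjusted threshold in the comparison given.

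Cell cycle genes were counted in the same comparisons. Of 49 G2 and M phase genes tested, 24 were higher and 7 lower in mesoderm, 26 and 5 in endothelium and 28 and 4 in erythroid cells, with medians of 0.35, 0.37 and 0.31. The shares called in either direction were 63.3%, 63.3% and 65.3%. These were close to those of all genes in mesoderm (63.8%) and endothelium (60.5%) and lower than in erythroid cells (77.9%). By direction, 30.6%, 28.6% and 36.1% of all genes were called higher and 33.2%, 31.9% and 41.8% lower, whereas most calls in this list were higher. Cbx5 was higher by 1.29 in mesoderm and 1.30 in erythroid cells, Anp32e by 1.43, 1.29 and 1.96, Psrc1 by 3.29 in mesoderm, Lbr and Tpx2 by 1.43 and 1.14 in endothelium, and Mki67 by 1.34 in erythroid cells. Markers of contractile cells summed to between 158 and 719 CPM in mesoderm, and leaving those cells out changed no member's call there. The part of cell cycle state in the tubulin differences was not tested.

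The genes most like each member over the 12 class sums were named as a description, among 5193 genes at 20 CPM or more. The sums share the library, and 12 points in 4 classes mostly reflect the class means. Cald1, Hoxb2 and Lama4 were closest to Tuba1a (Pearson's r of log2(CPM + 1) 0.996, 0.994 and 0.993), and Rab13, Ppp1r18 and Oaz2 to Tubb6 (0.998, 0.998 and 0.990). Dpysl2, Ndn and Cald1 were closest to Tubb5 (0.993, 0.992 and 0.990), and Dicer1, Acin1 and Myh10 to Tuba1b (0.987, 0.985 and 0.984). Dhx32, Tmem9b and Atp6v1b2 were closest to Tuba1c (0.980, 0.980 and 0.979), and 1190007I07Rik, Uqcr10 and Atp5k to Tuba4a (0.979, 0.978 and 0.975). For Tubb4b, Fth1, Jpt1 and Uqcrb came closest (0.961, 0.944 and 0.935), and for Tubb2a 4931406P16Rik, Sem1 and Aida (0.981, 0.974 and 0.971). Among members, Tuba1a and Tubb5 correlated at 0.986 and Tuba1a and Tuba4a at -0.947. Tubb2b and Tubb3 were below 20 CPM on average and have no named neighbour.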

How the data were processed

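For each of 3 tagged samples the authors deposited a matrix of unnormalised UMI counts, which the file headers credit to Cell Ranger 6.1.2. Genome builds GRCm38 and mm10 are named in the submitters' processing notes, and the sources used here do not give the annotation or how cells were assigned to tags. The members, gene lists and tests were chosen with earlier results of these data known. The globin gate used 7 genes and left out Hbb-bh2, which had 97 UMIs.

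For each tagged sample the cells of a class were added up, and these sums were fitted with edgeR 4.0.16 (trimmed mean scaling, filterByExpr, glmQLFit, glmQLFTest, two-sided, Benjamini-Hochberg, threshold 0.05) in R 4.3.3. Alternatives used DESeq2 1.42.0, library size scaling, no count filter, thinned sums, doublet removal (Scrublet in scanpy 1.11.5), other cell filters and gates, a fit of all classes, and leaving out each tagged sample. The script was tested on simulated data. Sums of the classes compared come from the same tagged sample, so the numbers pair them: deviations of same-numbered sums correlated across genes by 0.00691 to 0.102 between classes and 0.139 to 0.233 between the erythroid globin groups.

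Named genes were all members, further tubulin genes with at least 20 UMIs in a class, the 3 genes with the smallest p per list and comparison, and the 3 genes most like each member. Sequences come from GENCODE M21 transcripts, where 30900 of 30970 gene identifiers matched, and were aligned with Biopython. With 3 tagged samples, class totals of 1250024 to 16784528 gene UMIs limit the precision for rare members.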

Additional observations from a re-analysis of the deposited data

How the results depend on the processing

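The member counts of the 3 comparisons with endoderm stayed within 1.5 times their reported values under every alternative run: 6 to 7 higher and 3 lower in mesoderm, 6 and 3 in endothelium, and 3 to 5 higher and 3 to 5 lower in erythroid cells. All 126 mesoderm and all 117 endothelium values of single members kept their direction and call. In erythroid cells 117 values did, 4 took the opposite sign, 5 lost a call and 2 gained one. Those with the opposite sign were Tuba1a (-0.0073 with library size scaling, -0.0022 without tagged sample 3, where leaving out tagged samples gave -0.0022 to 0.40) and Tubb4b (0.0016 with sums thinned to the smallest, 0.068 with gate thresholds doubled), all uncalled. The others were Tubb2b, uncalled with DESeq2, thinned sums and without tagged sample 2 or 3, Tubb5, uncalled with library size scaling, Tubb4b, called with it, and Tuba1a, called with doublet calls removed. Leaving out 1 tagged sample gave 2767 to 3477 higher and 2992 to 3546 lower genes in mesoderm. Of the isotype share values under alternatives, 304 moved by less than 1 SD and 16 by more, and the largest move was Tuba1a in endothelium, to 31.3% with gate thresholds doubled. Leaving globins out of the total moved erythroid alpha to 833.4 and beta to 1630.

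The split of erythroid cells by globin share depended on the setting, and the cause was not tested. Over all genes, 183 higher and 73 lower became 645 and 357 with the tagged sample as a replicate block, 41 and 111 with library size scaling, 366 and 208 without the count filter, and 95 and 17 with thinned sums. Lower calls were 17 with DESeq2 and 40 with doublet calls removed. Leaving out 1 tagged sample gave 1 to 371 higher and 0 to 169 lower genes, 0 to 3 members higher and 0 to 1 lower. Members called were 1 higher with library size scaling, 2 lower with the replicate block, and 0 lower with DESeq2 or with doublet calls removed. The replicate block changed no member's call in the comparisons with endoderm. Depth limited Tubb3, Tubb2b and, outside endoderm and erythroid cells, Tuba4a.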

Other observations

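The 188 cells that fell in no class held 65 Tubb3 UMIs, 32, 30 and 3 in the 3 tagged samples, a level of 8.48, 12.5 and 1.34 CPM, against 101 UMIs in the 629 erythroid cells. The 2 tagged samples with more Tubb3 there also had more Tubb6, at 38.4, 48.0 and 16.6 CPM. In these cells the summed megakaryocyte markers lay between 22.3 and 56.3 CPM, trophoblast markers between 27.3 and 271.5 and neural markers between 9.17 and 16.1. Of the neural markers, Sox1, Pax6 and Neurod1 had no UMI. Endoderm markers summed to between 404 and 545 in these cells, beside 356 to 517 in mesoderm and 357 to 635 in endothelium. In the endoderm class the same markers summed to between 18167 and 24164. Erythroid markers summed to between 298 and 510, beside 975 to 1367 in the erythroid class. Parietal endoderm markers summed to between 59.4 and 775.5, beside 499 to 691 in the endoderm class. Which of the cells in no class gave the Tubb3 and Tubb6 UMIs was not tested.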
